A study of Mus musculus with 8 samples.

Results

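Zscan4 and its companions in the 2-cell-like state were followed in mouse embryonic stem (ES) cells of 2 genotypes. Cells were wild type (WT) or carried 1 copy of Nkx25 R141C, a point mutation of a homeobox factor of the heart. The 9 genes named for this account were Zscan4a, Zscan4c, Zscan4d, Zscan4e, Zscan4f, Tcstv1, Tcstv3, Usp17lc and Zfp352. They were chosen by their day 0 signals, because replicate cultures differed strongly there, and were found by gene name among the probes of the array. A probe carried the name of 8 of the 9 genes, and these 8 genes had 13 probes of the 55583 in use and were among the 25917 genes tested. No probe carried the name Zscan4d.

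RNA came from WT and R141C cultures taken as ES cells (day 0) or as embryoid bodies on the way to cardiac progenitors (day 6), with 2 biological replicates in each of the 4 groups. Embryoid bodies were grown without LIF, first for 2 days in hanging drops of 800 cells and then for 3 days in suspension, and were plated on gelatin at day 5 for 24 hours. Each culture was read on 1 single-colour Agilent array with 60-base probes. The ES cell line, the number of R141C clones and the use of feeder cells are not given in the sources used here, and the point mutation is not read by these probes.

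In mouse ES cell cultures, a small and changing fraction of cells passes for a time through a state that resembles the embryo at the 2-cell stage. Cells in this state transcribe Zscan4, a family of nearly identical genes whose zinc finger and SCAN domain proteins act in telomere upkeep, together with endogenous retroviruses of the MERVL type and genes that are otherwise active around the first activation of the embryonic genome. In a bulk RNA sample, fewer cells in the state and less RNA per cell cannot be told apart.

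The probes show how far the family members can be separated. The Zscan4 probes lie within 608 kb of chromosome 7 (mm9, chr7:11379626-11987667). The probe named Zscan4f (chr7:11987608-11987667) lists RefSeq transcripts of Zscan4f, Zscan4d, Zscan4c and Zscan4a, and the probe named Zscan4e (chr7:11891736-11891795) lists those of Zscan4b, Zscan4d and Zscan4f beside 1 that matched no current gene. A probe named Zscan4c (chr7:11594425-11594484) lists Zscan4c, Zscan4d and Zscan4a, so Zscan4d was read only through probes of other names. Its sequence is shown as a stretch that stands for 3 family members and has no capitals.
Zscan4c: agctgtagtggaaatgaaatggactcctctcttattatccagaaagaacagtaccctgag

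A second Zscan4c probe (chr7:11595751-11595810) and the first Zscan4a probe (chr7:11379679-11379738) were identical at 56 of 58 aligned bases. The 30 bases that hold both differences are shown, with the differing bases in capitals, since signal on either probe can come from either gene.
Zscan4a: tgcattgcctcttcagacatctcatATcat
Zscan4c: tgcattgcctcttcagacatctcatGCcat

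A Usp17lc probe (chr7:110567420-110567479) differed from the probe named Usp17ld at 4 of 60 bases. Usp17lc and Usp17ld belong to a family of deubiquitinating enzymes, and the capitals mark the differing bases.
Usp17lc: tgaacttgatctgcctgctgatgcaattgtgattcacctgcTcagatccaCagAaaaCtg
Usp17ld: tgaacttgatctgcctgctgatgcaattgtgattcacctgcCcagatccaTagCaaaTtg

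Zfp352, a zinc finger gene, had a pair of probes that gave different pictures. The sequence of the probe whose signal varied over the arrays (chr4:89891912-89891971) is shown, with capitals for a TGA at its end that is a stop codon in the first reading frame of the probe. The other probe (chr4:89892270-89892329) begins 358 bases further along the chromosome.
Zfp352: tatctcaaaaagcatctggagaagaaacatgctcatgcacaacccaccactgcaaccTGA

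Of the probes, 64.6% to 70.5% were well above background on the day 0 arrays and 55.8% to 62.6% on the day 6 arrays. The 75th percentile of the processed signal was 936 to 1848. Signals below are log2 values with that percentile of each array set to 0. On this scale the lowest signal that counted as well above background was -6.92 to -5.88 at day 0 and -5.69 to -4.97 at day 6. Dim signals were thus harder to see at day 6. Replicates did not always stand closest to each other. At day 0, the correlation across genes was 0.983 between the WT arrays and 0.991 between WT replicate 1 and R141C replicate 1. At day 6, R141C replicate 2 correlated at 0.988 and 0.989 with the WT arrays and at 0.982 with R141C replicate 1. Genes are not independent replicates, and these values are descriptions.

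At day 0 the Zscan4 genes were high in 1 WT culture and far lower in the other. Zscan4f had log2 signals of 4.98 in WT replicate 1, 0.15 in WT replicate 2, 0.94 in R141C replicate 1 and 3.24 in R141C replicate 2. WT replicate 1 was thus the highest and WT replicate 2 the lowest of the 4 arrays, with both R141C arrays between them. On the scale of the deposited signal this was 52016, 2044, 2492 and 15546 in the same order, and the WT replicates differed 28.5-fold. The R141C replicates differed 4.91-fold.

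The other Zscan4 probes repeated this order on the same arrays. Zscan4e had log2 signals of 4.74 and -0.02 in WT and 0.61 and 2.97 in R141C. Zscan4a had 3.80 and -1.01 in WT and -0.19 and 1.80 in R141C on its brighter probe. Zscan4c had 3.26 and -1.33 in WT and -0.75 and 1.18 in R141C. The groups overlapped for each of these genes, because the WT replicates lay on either side of the R141C replicates. Over the 7 Zscan4 probes the WT replicates differed by 4.21 to 4.87 (log2), or 18.5-fold to 29.2-fold, and the R141C replicates by 1.88 to 2.36, or 3.69-fold to 5.14-fold. The probes share targets and are not independent readings.

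**Figure D1:**
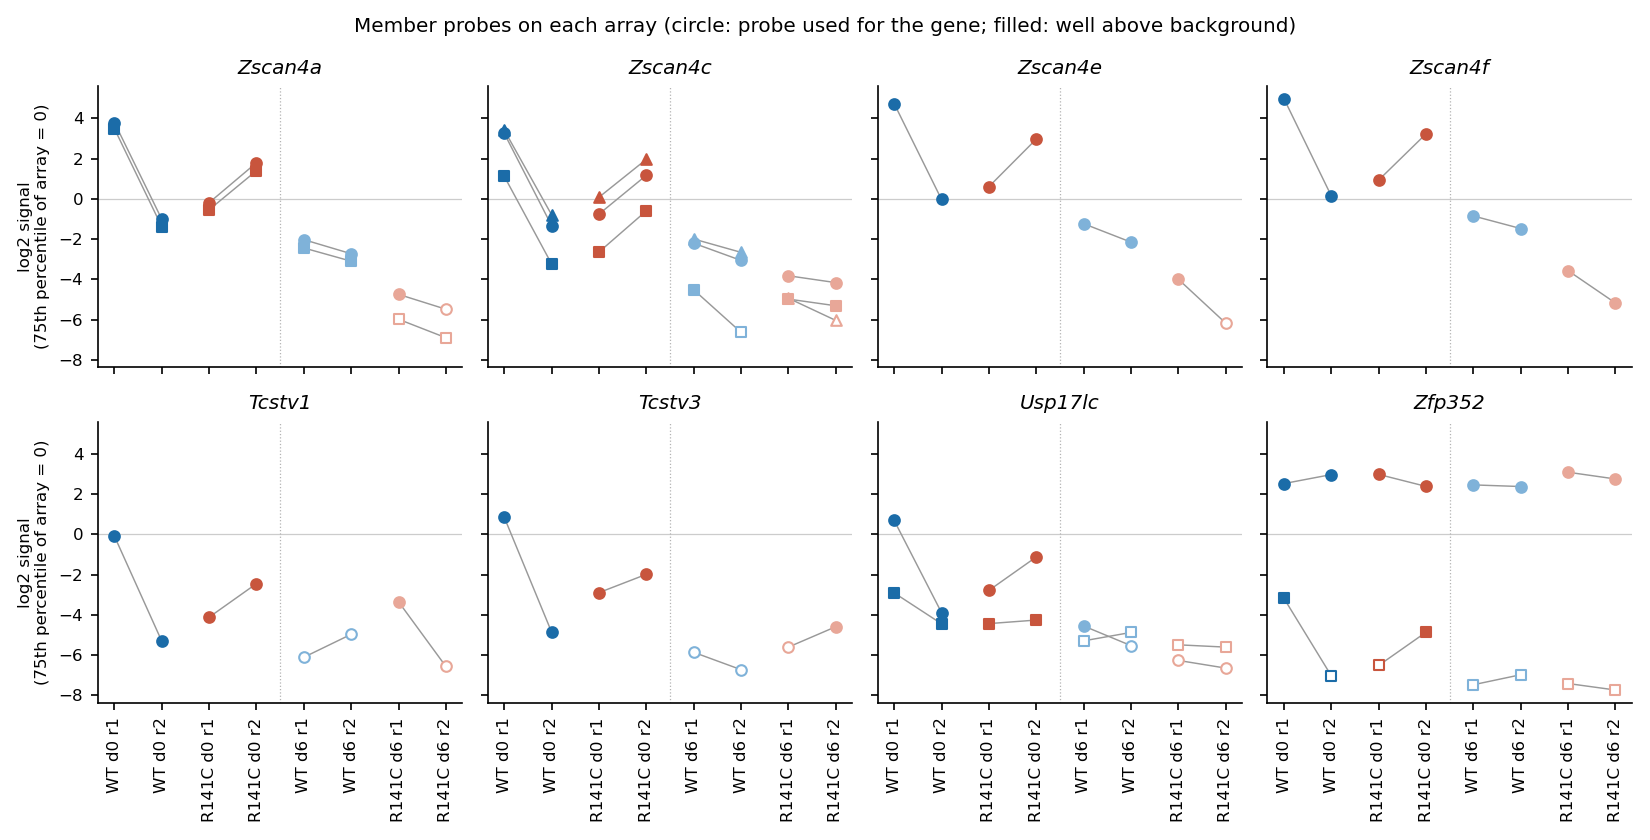
Log2 signal of the 13 member probes (vertical axis, 75th percentile of each array set to 0) on each of the 8 arrays (horizontal axis; d0 and d6 are days, r1 and r2 replicates). Circles are the probe that stands for the gene, squares and triangles its other probes, filled symbols are well above background and lines join replicates. On the day 0 arrays 12 of the 13 probes are highest in WT replicate 1 and lowest in WT replicate 2, and 1 Zfp352 probe stays between 2.38 and 3.09 on all 8 arrays. The other Zfp352 probe, 1 of the 12, is well above background only in WT replicate 1 and R141C replicate 2 of day 0.

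Tcstv1 and Tcstv3, members of a group of transcripts of the 2-cell stage, had the widest gaps between the WT cultures. Tcstv3 had log2 signals of 0.85 and -4.86 in WT, a 52.2-fold difference, and -2.89 and -1.98 in R141C. Tcstv1 had -0.09 and -5.31 in WT, a 37.2-fold difference, and -4.11 and -2.44 in R141C. Again the WT arrays were the highest and the lowest of the 4. By the size of the WT gap, Tcstv3 ranked 2 and Tcstv1 ranked 6 among the 25917 genes, while the 4 Zscan4 genes ranked 19 to 39 and Usp17lc ranked 40.

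Usp17lc had log2 signals of 0.70 and -3.88 in WT and -2.78 and -1.12 in R141C on the probe with the higher signal (chr7:110568320-110568379). Its probe that nearly matches Usp17ld was flatter, with -2.90 and -4.44 in WT and -4.43 and -4.25 in R141C. The probe named Usp17ld was flat as well, at -2.15 and -3.26 in WT and -2.76 and -3.01 in R141C. The brighter Usp17lc probe in turn was identical at 58 of 60 bases to a probe for the transcript AK155468, which had 0.84 and -3.28 in WT and -2.21 and -0.56 in R141C. Signals of the Usp17l family therefore cannot be assigned to single genes here.

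The probe that stands for Zfp352 by its higher signal did not follow the others. It was well above background on all 8 arrays, at 2.53 and 2.98 in WT and 2.99 and 2.39 in R141C at day 0. The probe that ends in the stop codon had -3.18 and -7.03 in WT and -6.51 and -4.86 in R141C. That probe was well above background only on the 2 arrays where the Zscan4 genes were highest, so it was not tested. WT replicate 2 and R141C replicate 1 had 14.2 and 14.3 units of deposited signal, not well above background. The order of those 2 arrays cannot be read.

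In all, 7 of the 8 genes with a probe had the order WT replicate 1, R141C replicate 2, R141C replicate 1, WT replicate 2 from high to low, with Zfp352 as the exception. Among all tested genes, 2.79% had this order, and 1.79% were higher in WT replicate 1 than in WT replicate 2 by more than 2 (log2), as were the same 7 members. The median gap between replicates over the 8 genes was 4.79 in WT and 1.80 in R141C at day 0, against 0.298 and 0.321 over all tested genes. At day 6 it was 0.859 in WT and 0.876 in R141C, against 0.172 and 0.365. These day 0 values served to choose the members, so they carry no test. Of the 8 genes, 3 passed the filter on dim probes only through day 0 arrays, which are Tcstv1, Tcstv3 and Usp17lc.

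**Figure D2:**
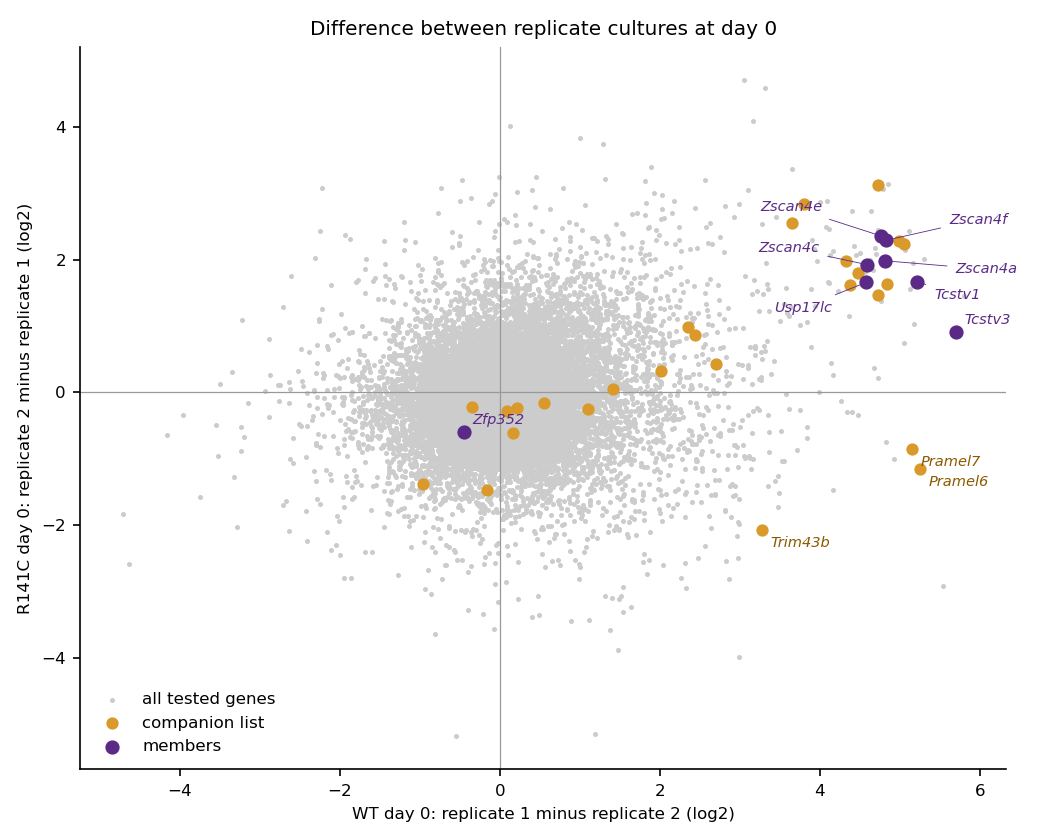
Difference between replicate cultures at day 0 in log2 signal, for WT (horizontal axis, replicate 1 minus replicate 2) and R141C (vertical axis, replicate 2 minus replicate 1), for all 25917 tested genes (grey), the 26 tested companion genes (orange) and the 8 members (purple). Apart from Zfp352, the members lie at 4.58 to 5.71 on the horizontal axis, and Pramel6, Pramel7 and Trim43b lie below 0 on the vertical axis.

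The mean R141C signal at day 0 was lower than the mean WT signal for each of the 8 genes, by a median of 0.52 on the log2 scale, which is small beside the gap between the WT replicates. This direction rested on single arrays. Without WT replicate 1 the median difference was 1.87 (R141C higher), without WT replicate 2 it was -2.97, and without R141C replicate 1 it was 0.33. No direction between the genotypes can be read at day 0.

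At day 6, whose signals did not serve to choose the members, none of the 8 genes differed between R141C and WT in limma at an adjusted p under 0.05. The model pools the spread of all 4 groups, however. Apart from Zfp352, the wide day 0 gaps that chose the members raise their standard errors. A lack of calls therefore cannot show that the genotypes were alike. Over all genes the same test called 17 (0.0656%), and 2213 had an unadjusted p under 0.05, none of them a member. The Zscan4 genes had lower values on both R141C arrays. Zscan4f had 756 and 506 units of deposited signal in WT against 79.1 and 34.5 in R141C, or log2 signals of -0.85 and -1.47 against -3.57 and -5.17. The groups did not overlap, and the difference in log2 signal was -3.21 (SE 1.55, limma adjusted p = 0.648).

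Zscan4e had log2 signals of -1.23 and -2.14 in WT and -3.99 and -6.17 in R141C at day 6, a difference of -3.39 (SE 1.6, limma adjusted p = 0.644). Zscan4a had -2.02 and -2.72 against -4.74 and -5.48, a difference of -2.74 (SE 1.46, limma adjusted p = 0.675). For Zscan4e and Zscan4a, R141C replicate 2 was not well above background, so the sizes of their differences are uncertain. Zscan4c differed least among the 4, with -2.20 and -3.06 against -3.82 and -4.16, a difference of -1.36 (SE 1.39, limma adjusted p = 0.814). In each the R141C arrays lay below both WT arrays and no difference passed the test. The standard error pools the spread of all 4 groups, the replicates that differed at day 0 included.

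Probe by probe the Zscan4 signals at day 6 were not uniform. Of the 7 Zscan4 probes, 6 had both WT arrays above both R141C arrays, and the shared Zscan4c probe printed in full did not. That probe had log2 signals of -4.51 and -6.63 in WT and -4.98 and -5.31 in R141C, of which WT replicate 2 was not well above background. The second Zscan4c probe had -1.99 and -2.65 against -4.93 and -6.04, the last not well above background (difference -3.16, SE 1.31, limma adjusted p = 0.553 with each probe as a feature). The second Zscan4a probe (chr7:11379626-11379685) had -2.44 and -3.09 in WT and was not well above background on either R141C array, which puts WT at least 6.83-fold higher (limma adjusted p = 0.537). The last fold is a lower bound, set against the lowest normalized signal that counted as well above background on each array. These 2 were the only ones of the 12 member probes tested with an unadjusted p under 0.05.

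Tcstv1 and Tcstv3 were not well above background on the WT arrays at day 6. In R141C, Tcstv1 was well above background in replicate 1 (log2 signal -3.34) and not in replicate 2 (-6.56), and Tcstv3 in replicate 2 (-4.59) and not in replicate 1 (-5.60). Their differences from WT were 0.58 (SE 1.77, limma adjusted p = 0.939) and 1.20 (SE 1.63, limma adjusted p = 0.863). Usp17lc had -4.55 and -5.52 in WT and -6.26 and -6.64 in R141C, where it was not well above background (difference -1.42, SE 1.37, limma adjusted p = 0.804). Zfp352 had 2.46 and 2.38 against 3.09 and 2.76 (difference 0.50, SE 0.28, limma adjusted p = 0.682).

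Thus 5 of the 8 genes had both WT arrays above both R141C arrays at day 6, where 16.5% of all tested genes did, and the median difference was -1.39 against 0.07 over all genes. Another 2, Tcstv3 and Zfp352, had both R141C arrays above both WT arrays, as did 27.8% of all tested genes. None of these passed the test. The 5 were the Zscan4 genes, whose probes are not independent readings, and Usp17lc. At day 6 Usp17lc was well above background only on WT replicate 1, and Tcstv3 only on R141C replicate 2. The order of the arrays is thus uncertain for Usp17lc and Tcstv3.

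From day 0 to day 6 every member had a lower mean in WT, and 7 of the 8 had a lower mean in R141C. In WT the differences in log2 signal were -3.77 for Zscan4a, -3.59 for Zscan4c, -4.04 for Zscan4e, -3.72 for Zscan4f, -2.84 for Tcstv1, -4.28 for Tcstv3, -3.44 for Usp17lc and -0.33 for Zfp352. In R141C they were -5.92, -4.20, -6.87, -6.46, -1.68, -2.66, -4.50 and 0.24 in the same order. At day 6, Zscan4a, Zscan4e and Tcstv1 were not well above background in R141C replicate 2, and Tcstv3 was not in R141C replicate 1. Usp17lc was not on either R141C array or on WT replicate 2. Tcstv1 and Tcstv3 were not on either WT array. The sizes of the changes of these genes are thus uncertain. Zfp352, read by its flat probe, stood out with a change near 0 in both genotypes. These comparisons share the day 0 arrays that chose the members and are given without a test.

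**Figure D3:**
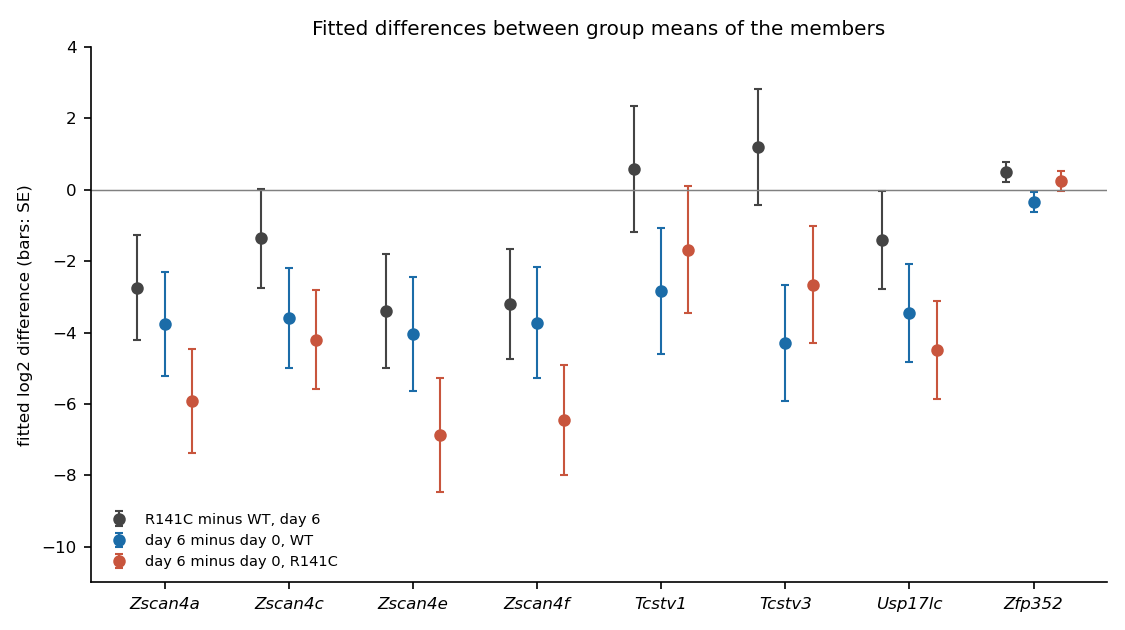
Fitted log2 difference between group means (vertical axis) for the 8 members (horizontal axis), with bars of 1 SE on either side. Black points are R141C minus WT at day 6, blue and red points day 6 minus day 0 in WT and R141C. The 4 Zscan4 genes lie between -1.36 and -3.39 for the genotype difference at day 6, with wide bars, and Zfp352 lies near 0 in all 3. Most members were not well above background on at least 1 day 6 array.

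Both day 0 arrays lay above both day 6 arrays in 7 of 8 genes in WT, all but Tcstv1, where 41.5% of all genes did. In R141C they did in 6 of 8, all but Tcstv1 and Zfp352, where 30.4% of all genes did. The members were chosen by day 0 signals, and Tcstv1, Tcstv3 and Usp17lc passed the filter only through day 0. These counts and the lower bounds below were thus partly set by that choice and are descriptions. Even WT replicate 2, with the lowest Zscan4 signals of day 0, stayed above the WT arrays of day 6, at 0.15 against -0.85 and -1.47 for Zscan4f. The median difference over the 8 genes was -3.66 in WT and -4.35 in R141C, against -0.12 and -0.03 over all tested genes. In WT its size hung on which day 0 culture was used. It was -1.30 without WT replicate 1 and -6.01 without WT replicate 2. Where no day 6 array was well above background a fold is a lower bound, and Tcstv1 was at least 5.63-fold and Tcstv3 at least 9.13-fold higher at day 0 than at day 6 in WT. Both bounds rested on WT replicate 1. Without it the bound for Tcstv3 was 1.26-fold and Tcstv1 had none, since WT replicate 2 at day 0 (-5.31) lay below WT replicate 2 at day 6 (-4.96). In R141C, Usp17lc was at least 12-fold higher at day 0, or 21.4-fold without replicate 1 and 6.75-fold without replicate 2.

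A list of 46 further genes known from the 2-cell-like state, of which 34 had a probe and 26 were tested, showed how widely the pattern reached. Of the 26, 17 were higher in WT replicate 1 than in WT replicate 2 by more than 2 (log2), and 12 had the full order of the Zscan4 genes, against 1.79% and 2.79% of all tested genes. The list was drawn up with earlier results of these data known, and these counts are descriptions. The median gap of the list was 2.99 between the WT replicates and 1.27 between the R141C replicates. Of all 59 probes of the 34 genes, 31 had the order and 40 the gap of more than 2. Both counts include probes that were not well above background on any day 0 array. A Tdpoz1 probe of that kind had the order, at -7.57 and -8.60 in WT and -8.20 and -7.93 in R141C. The probe counts are thus not read as a result, and the shares above are of tested genes, not of probes. Sequence shared among companion probes was not examined.

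Among the companions, Gm8300 and Gm2022, which lie on chromosome 12 away from the Zscan4 cluster, gave values like those of the Zscan4 genes. Gm8300 had log2 signals of 1.87 and -2.60 in WT and -1.61 and 0.19 in R141C at day 0. By day 6 its arrays, in the same order, stood at -3.89, -4.67, -7.66 and -7.10. Gm2022 had 2.87, -1.51, -0.65 and 0.97 at day 0 and -3.08, -3.46, -4.96 and -4.57 at day 6. AF067061 and Gm4340, named after their values were seen, reached 4.83 and 4.73 in WT replicate 1 and -0.16 and -0.32 in WT replicate 2. In each of these 4 genes WT replicate 1 was the highest array and the day 6 arrays were the lowest.

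Pramel6 had a different order between the R141C cultures. It stood at 0.72 and -4.53 in WT and at -1.04 and -2.20 in R141C, so that R141C replicate 1 was higher than replicate 2. Pramel7 (0.04, -5.11, -2.16 and -3.01) and Trim43b (-2.54, -5.81, -2.99 and -5.07) did the same, both named after their values were seen. The WT gap of these genes had the direction of the Zscan4 gap, and their R141C gap the opposite direction.

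Other companions were flat at day 0. Dux, the homeobox gene that can drive cells into the state, had -4.75 and -4.97 in WT and -4.61 and -4.84 in R141C on its brighter probe. These signals are dim, and its other probe was well above background on only 4 of the 8 arrays. A change of Dux could thus be missed. Sp110, an interferon-inducible nuclear protein gene, stayed at 7.48 to 8.23 on its brightest probe, while 2 further probes of the gene differed between the WT replicates (-0.23 against -3.52, and -1.20 against -2.80). Usp17la was flat on its brighter probe and followed the Zscan4 order on the other (-0.26, -4.50, -3.65 and -1.86). As for Zfp352, probes of 1 gene name gave different patterns.

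**Figure D4:**
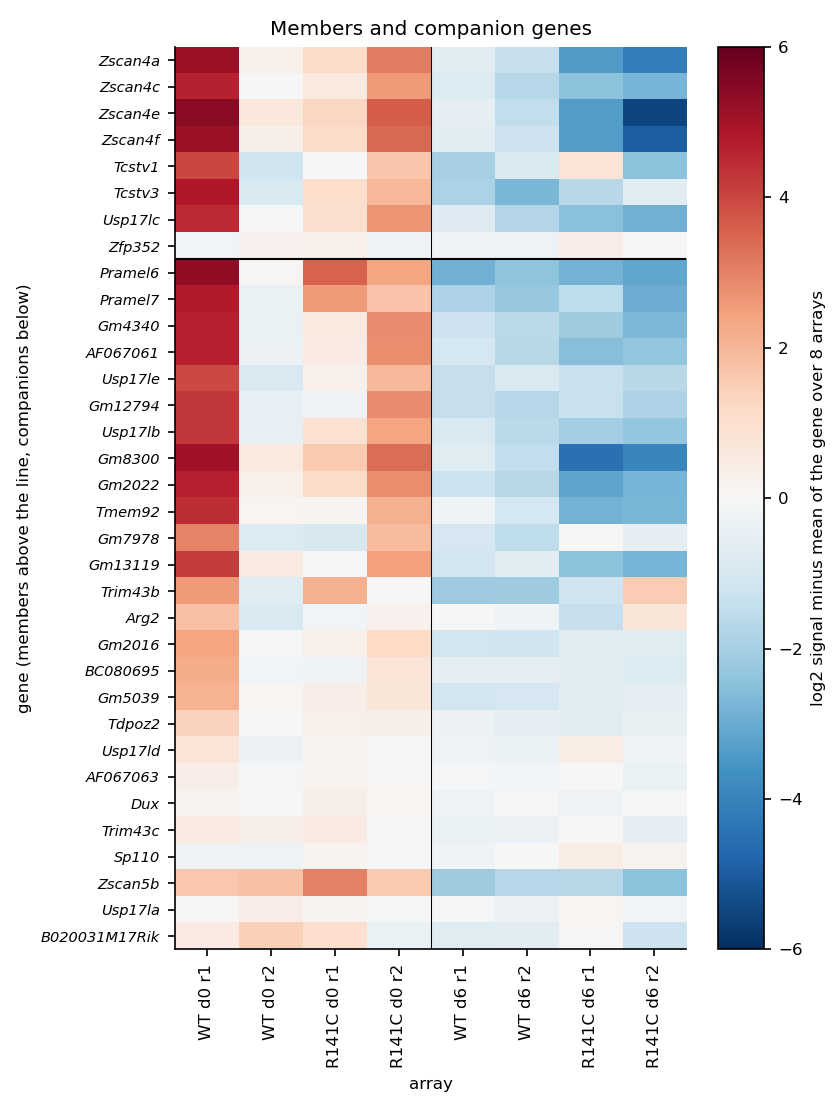
Log2 signal minus the mean of each gene over the 8 arrays (colour, from -6 in blue to 6 in red) for the 8 members (above the line) and the 26 tested companion genes (below, ordered by the gap between the WT replicates at day 0), on the 8 arrays (horizontal axis). WT replicate 1 at day 0 is the reddest column for the members other than Zfp352 and for the upper companions, and the lowest rows are flat or differ from that pattern.

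Between the genotypes no companion was called by limma at day 6 (smallest adjusted p = 0.607) or at day 0, and none had an unadjusted p under 0.05 in either. In WT, 3 of the 26 fell from day 0 to day 6, where 12.9% of all genes fell, 11.1% rose and 24% changed in either direction. Gm5039 was well above background on all 8 arrays and fell by 2.17 (log2, SE 0.58, limma adjusted p = 0.039). Pramel6 and Zscan5b were not well above background on any day 6 array and passed the filter only through day 0. The filter thus largely set the direction of their change in both genotypes, so their calls carry no weight and no p is given. They are counted among the 3 in WT and the 4 in R141C, and their folds are lower bounds. In WT, Pramel6 was at least 9.77-fold higher at day 0, or 1.58-fold without WT replicate 1 and 60.4-fold without WT replicate 2. Zscan5b was at least 2.60-fold higher. In R141C, 4 of the 26 fell (15.4%), where 8.04% of all genes fell, 7.61% rose and 15.6% changed in either direction. Gm2022, well above background on all 8 arrays, fell by 4.92 (log2, SE 1.30, limma adjusted p = 0.048). The other 3 were not well above background on either R141C array of day 6. Gm8300 was at least 28.4-fold higher at day 0 (limma adjusted p = 0.022), or 53.0-fold without R141C replicate 1 and 15.2-fold without R141C replicate 2. Pramel6 was at least 15.1-fold higher, and at least 10.1-fold without replicate 1. Zscan5b was at least 4.98-fold higher, or 3.00-fold without replicate 1 and 8.28-fold without replicate 2. The median change of the list was -2.51 in WT and -1.35 in R141C, and none rose. The WT count was 16 without WT replicate 2 at day 0 and 1 without any 1 of the R141C arrays or the WT day 6 arrays. The R141C count was 14 without either WT day 0 array, 2 without either WT day 6 array and 1 without any 1 of the R141C arrays.

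Of the genes outside the members, 10 lay nearest to the mean Zscan4 profile, by the mean absolute difference of centred log2 signals over the 8 arrays. They were Gm21319, Gm8300, Gm2022, Gm11237, Gm13043, ENSMUST00000163216, the unnamed probe A_55_P2001523, the unnamed probe A_55_P2074435, ENSMUST00000167995 and AK155468, at 0.235 to 0.564, where the median gene lay at 2.38. The nearest, Gm21319 (chr12:89265932-89265991 in mm9), had 2.57 and -2.10 in WT and -1.17 and 0.68 in R141C at day 0. By day 6 it stood at -3.71 and -4.03 in WT and at -5.61 and -7.48 in R141C. Of the 10, 4 lay on chromosome 12 (Gm21319, Gm8300, Gm2022 and A_55_P2074435), and Gm8300 and Gm2022 were in the companion list. Those 4 lie close together (chr12:88858331-89265991 in mm9). Sequence shared among their probes was not examined, so they are not taken as separate readings. The likeness rests on 8 arrays, and day 0 accounts for much of it.

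Near the Zscan4 cluster most other genes were flat at day 0. Within 1 Mb on either side of the Zscan4 probes, 17 tested genes of other names had a median WT gap at day 0 of 0.287, close to the 0.298 of all genes. Only the unnamed probe A_55_P2001523 had a gap above 2. It lies inside the cluster (chr7:11650658-11650717), is identical to the Zscan4f probe at 52 of 58 aligned bases, and had log2 signals of 0.34 and -4.51 in WT and -4.47 and -1.33 in R141C.

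Promoter sequences from RefSeq (GRCm38.p6) were at hand for 5 of the 9 genes, namely Zscan4c, Zscan4d, Zscan4f, Usp17lc and Zfp352. The 250 bases before the start of Zscan4c and Zscan4f are shown because the probe named Zscan4f also lists Zscan4c, with TATAAA in capitals. The first is chr7:11005495-11005744 and the second chr7:11397665-11397914, both on the plus strand.
Zscan4c: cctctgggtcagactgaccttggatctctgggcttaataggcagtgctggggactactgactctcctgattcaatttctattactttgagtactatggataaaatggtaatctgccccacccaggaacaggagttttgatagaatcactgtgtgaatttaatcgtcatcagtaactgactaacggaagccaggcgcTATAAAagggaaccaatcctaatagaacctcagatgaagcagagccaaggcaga
Zscan4f: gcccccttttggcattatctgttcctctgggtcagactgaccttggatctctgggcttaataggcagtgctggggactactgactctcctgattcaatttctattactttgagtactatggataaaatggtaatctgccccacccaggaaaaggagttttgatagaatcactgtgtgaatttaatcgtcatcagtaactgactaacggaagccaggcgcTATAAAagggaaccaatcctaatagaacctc

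Where they overlap, the promoters of Zscan4c and Zscan4f were identical at 226 of 227 bases, and Zscan4d was identical to Zscan4c at 232 of 239. Those of Usp17lc and Zfp352 shared no run of more than 8 bases with them or with each other. TATAAA, searched on both strands, was present in Zscan4c (first base 54 bases before the start), Zscan4d (65), Zscan4f (31) and Usp17lc (88) and not in Zfp352. The search covered whole entries, of 300 bases for the members, which run past the start as well as the 250 bases before it. TATAAA is present in 13.62% of the 32851 promoter entries. A match is a description of the letters in the window.

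Genes known to act on the state were read on the same arrays. Of 8 tested activators none had the order of the Zscan4 genes, which 2.79% of all genes had, and their median WT gap was 0.294, near the 0.298 of all genes. Dppa2 and Dppa4, nuclear proteins that act upstream of Dux, fell with differentiation. At day 0 Dppa2 stood at 3.98 and 3.79 in WT and at 3.18 and 3.19 in R141C, so that its replicates lay close together and both WT arrays were the higher. Dppa2 fell by 4.75 (SE 0.31, adjusted p = 0.00040) in WT and by 4.25 (SE 0.31, adjusted p = 0.00089) in R141C on the log2 scale. Dppa4 fell by 4.08 (SE 0.24, adjusted p = 0.00037) and by 3.06 (SE 0.24, adjusted p = 0.0011), all from limma. The nuclear receptor gene Nr5a2 fell by 3.76 in WT and by 2.93 in R141C (limma adjusted p = 0.0016 and 0.0057). Tbx3 rose in R141C alone past the threshold, by 2.54 (SE 0.67, limma adjusted p = 0.047), against -0.35 (adjusted p = 0.74) in WT, and the difference between the genotypes was not called. In all, 3 of the 8 activators fell in WT, and 3 fell and 1 rose in R141C. Among all tested genes 12.9% fell in WT and 8.04% fell and 7.61% rose in R141C.

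Of 30 genes that hold the state in check, all tested, 6 fell in WT, where 12.9% of all genes fell, and 4 in R141C, where 8.04% did, and none rose. The chromatin corepressor Trim28 fell by 1.21 in WT and by 1.06 in R141C (limma adjusted p = 0.0088 and 0.020), and the replication timing factor Rif1 by 1.49 and by 1.1 (limma adjusted p = 0.0044 and 0.018). Zfp42 changed by -5.0 and -4.45 (limma adjusted p = 0.00059 and 0.0013), and L3mbtl2 by -1.29 and -1.45 (limma adjusted p = 0.014 in both). The median WT gap of these 30 genes at day 0 was 0.169. None had the Zscan4 order.

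Genes of telomere upkeep and meiotic recombination, 13 of 14 of which were tested, likewise had no member in the Zscan4 order. In WT, where 12.9% of all genes fell, 6 of the 13 fell and none rose, led by Terf1 (-1.76, SE 0.42, limma adjusted p = 0.027) and Sycp3 (-1.6, SE 0.30, limma adjusted p = 0.012). In R141C, where 8.04% of all genes fell, 3 fell, among them Rif1 and Tex15 (-1.14, SE 0.30, limma adjusted p = 0.0497). Neither the regulators nor these genes were called between the genotypes.

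Markers of other cell states were read on the same arrays. All 10 tested markers of undifferentiated ES cells fell in WT, where 12.9% of all genes fell. In R141C 9 of them fell, where 8.04% of all genes did. The falls were led by Zfp42 and, in WT, Esrrb (-4.90, SE 0.44, limma adjusted p = 0.00097). At day 0 the summed signal of the 10 markers, in units of the 75th percentile, was 541 and 711 in WT and 546 and 425 in R141C. It was highest in WT replicate 2, where Zscan4 was lowest, and lowest in R141C replicate 2. The part of these markers in the Zscan4 pattern was not tested.

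Most fibroblast markers differed between replicates at day 0 in the direction of the Zscan4 genes, but none had the full Zscan4 order. Of the 7, 6 were higher in WT replicate 1 than in replicate 2, as were 13204 of the 25917 tested genes. In R141C, 6 were higher in replicate 2 than in replicate 1, as were 9260 of all tested genes. The summed signal of the 7 markers was 33.0 and 12.6 in WT and 11.7 and 50.8 in R141C at day 0. By day 6 it was 26.8 and 45.6 in WT and 20.7 and 70.0 in R141C. The collagen gene Col1a1, named after its values were seen, had log2 signals of 3.81 and 1.94 in WT and 2.28 and 4.77 in R141C. The highest array of these markers was R141C replicate 2 and that of Zscan4 was WT replicate 1, and all but Lum were well above background on all 8 arrays. At day 6 the summed signal was high where Zscan4 was lowest, in R141C replicate 2. The part of these cells in the day 0 pattern was not tested.

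**Figure D5:**
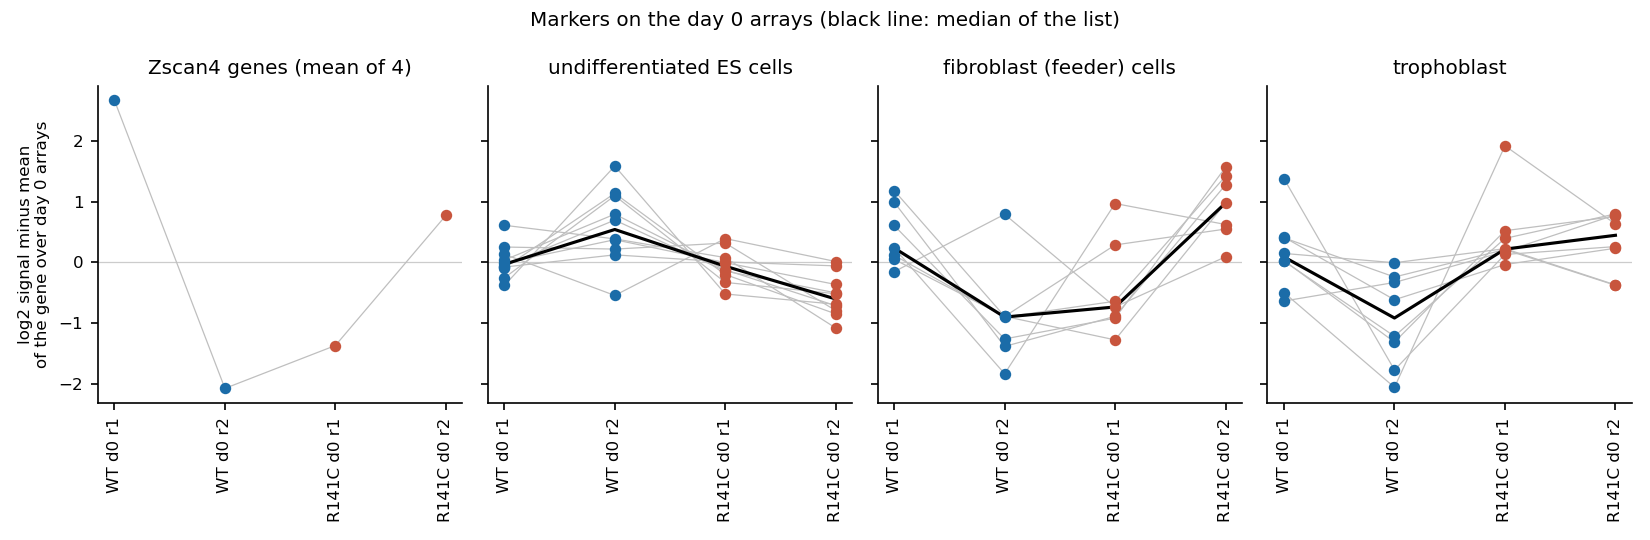
Log2 signal minus the mean of each gene over the 4 day 0 arrays (vertical axis), on those arrays (horizontal axis), for the mean of the 4 Zscan4 genes and for the markers of undifferentiated ES cells, fibroblasts and trophoblast. Points are genes, grey lines join a gene, and the black line is the median of the list. Zscan4 peaks in WT replicate 1, the undifferentiated markers in WT replicate 2 and the fibroblast markers in R141C replicate 2.

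Of 8 trophoblast markers, 3 rose and 1 fell in WT and 3 rose in R141C from day 0 to day 6, and their summed signal at day 0 was lowest in WT replicate 2 (341 and 146 in WT, 458 and 558 in R141C). The Zscan4 order held for 2 of the 8, and the part of such cells was not tested. Of 7 primitive endoderm markers 6 rose in each genotype, and of 5 primed epiblast markers 1 rose and 1 fell in WT and 1 fell in R141C. Of 7 cardiac progenitor genes 7 rose in WT and 6 in R141C, and 1 of the 7 fibroblast markers rose and 1 fell in WT. Among all tested genes, 11.1% rose and 12.9% fell in WT, and 7.61% rose and 8.04% fell in R141C. Calls of 1 gene in a list are not read as a result. None of these markers was called between the genotypes at either day. The summed signals of primitive endoderm markers at day 0 (13.1 and 13.8 in WT, 7.82 and 9.63 in R141C) did not follow Zscan4.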

How the data were processed

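The authors deposited scanner files with a processed signal per spot, a linear intensity with background subtracted inside each array, beside mean and background intensity. Per the file headers this was Agilent Feature Extraction 11.5.1.1, whereas the submitters' processing notes name 10.5.1.1. The deposited spot flags are 0 or 1. The deposited series matrix holds log2 values that correlated with log2 of the processed signal at 0.9995 to 0.9999 across probes (column medians 8.99 to 9.04). Its filter is not given in the sources used here.

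Outlier spots, numbering 131 to 251 on an array, were dropped. Repeated spots were averaged, and log2 signals were shifted to put each array's 75th percentile at 0. The brightest probe by mean signal stood for a gene name. It entered the tests where both arrays of some group put it well above background, as held for 25917 of 34793 names. A single limma model (version 3.58.1, R 4.3.3) held the 4 group means over 8 arrays, with 4 residual degrees of freedom and a prior of 2.70. Tests were two-sided, with Benjamini-Hochberg adjustment over all tested genes and a threshold of 0.05. The number of arrays limits the precision, and the model was tested on simulated data. Probe positions are on mm9 as in the files, and promoters are RefSeq's on GRCm38.p6. Members and gene lists were chosen with earlier results of these data known. Named are every member and probe, the 10 nearest profiles and, per list, up to 4 called genes with the largest change. Genes named outside this rule are marked in the text. One called gene of the telomere and meiosis list is not reported here. Nothing in the labels pairs replicates of the same number across groups.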

Additional observations from a re-analysis of the deposited data

How the results depend on the processing

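For the 8 members the count called between R141C and WT at day 6 was 0 under all 21 alternatives, with smallest adjusted p-values of 0.286 to 0.999 in limma. The median log2 difference at day 6 kept its sign, from -1.85 to -0.59, and the 4 Zscan4 genes were lower in R141C throughout. With Zfp352 read by its other probe, an alternative chosen after seeing the data, its difference was -0.35, and that of Tcstv1 ranged from -1.03 (without R141C_day6 replicate 1) to 2.19 with 1 array left out. Over all genes, the 17 calls at day 6 ranged from 0 to 117 over the alternatives. The median difference at day 0 ranged from -2.97 to 1.87 with 1 array left out, and that for R141C between the days was -2.75 after normexp background correction. Companion calls between the days ranged from 1 to 16 in WT and from 1 to 14 in R141C with 1 array left out. In WT they numbered 1 with the filter on all 8 arrays. In R141C they numbered 2 after quantile normalization, with the deposited series matrix values and with no filter on dim probes, 1 after normexp correction, 1 where only probes bright on all 8 arrays were kept, 8 with each probe as a feature and 9 with only the arrays compared. With a replicate block, 0 members were called at day 6, and companion calls were 4 in WT and 3 in R141C. The deviations of same-numbered arrays correlated across genes at -0.135 between the genotypes at day 0 and at 0.339 between the days in R141C, and at -0.061 to 0.080 for the other pairs of groups. For day 0, crossed replicate pairs gave 0 companion calls and 0 over all genes. Dim probes limit the day 6 values, since 9 of the 13 member probes were not well above background on at least 1 R141C array. The lower bounds with a day 0 array left out were also chosen after seeing the data.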
